A study of Ericerus pela with 8 samples.

Results

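The motor proteins of microtubules and the parts of cilia were described in Ericerus pela, the Chinese white wax scale, a soft scale insect with a sessile adult female and a winged adult male. The members were all assembled transcript fragments (unigenes) whose deposited protein match contained dynein, tektin, axonem, radial spoke, outer dense fib, flagella, intraflagellar, ciliary, sperm-associated or sperm flagell, and that had at least 10 reads in at least 1 library. They numbered 55 of 147509 unigenes, and 89 unigenes matched before the read minimum. At that minimum, 3 members had a highest count of 10 and 2 had 11, while 2 unigenes stopped just outside at 9 reads and 2 at 8.

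Total RNA came from homogenized larvae or adults in 8 libraries, 1 for each group: male first-instar larvae, male second-instar larvae and male adults, and female first-instar larvae, female second-instar larvae and female adults of early, middle and later stage. No treatment, strain or genotype is named in the sample labels, nor the number of insects pooled or where they were collected, so a sex or stage difference cannot be told apart from one between collections. Libraries held 1461 to 2303 kiloreads in the counts. Levels are given as CPM, the reads scaled to each library's total, and levels per length as RPKM, which is CPM per kilobase of unigene. For several unigenes together, RPKM is their summed CPM per kilobase of their summed length, not a sum of the RPKM of each. Each ratio carries an exact 95% interval that covers counting error only, since no group had a second library, and a ratio against 0 reads was taken at a floor of 3 reads. In such bulk RNA, fewer cells of a type and less RNA per cell cannot be told apart.

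The adult male library stood apart in its composition. Its TMM scaling factor, which corrects for the share of reads taken by a few abundant transcripts, was 0.707, against 1.01 to 1.10 in the other 7 libraries. TMM raised adult male levels 1.53-fold relative to male second-instar larvae (0.61 on the log2 scale) and 1.43 to 1.46-fold relative to the female adult libraries. Values scaled both ways are therefore given for adult males.

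Dyneins are motors that walk along microtubules towards their minus ends. Cytoplasmic dynein carries vesicles, nuclei and messenger RNAs inside cells and, in Drosophila, moves cargo from nurse cells into the oocyte. Axonemal (ciliary) dyneins instead bend cilia and flagella, which are assembled by intraflagellar transport, a traffic of protein trains along the axoneme. In insects cilia are found in sensory neurons and sperm tails, and the sperm of scale insects are known to lack a conventional axoneme. No unigene of any read count matched tektin, outer dense fib or sperm flagell.

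By match text the members fell into 17 unigenes of cytoplasmic dynein, 11 dyneins of unstated class, 3 unigenes of dynactin subunit 1, 3 ciliary dyneins, 12 intraflagellar transport proteins, 1 radial spoke protein, 3 sperm-associated antigens, 4 other axonemal or flagellar proteins and 1 dynein-related ATPase. They were 153 to 3194 bases long, with a median of 364, against 241 for all unigenes. Several may be pieces of 1 transcript: 36 of the 55 shared their matched protein record with another member, and the 55 matched 32 records. The best match of 48 members named an arthropod, and 48 members were read in all 8 libraries.

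The female later-stage adult library held the highest level of 29 of the 55 members, and the male adult library the lowest level of 29. Under TMM scaling these counts were 28 and 16. The male adult library was highest for 0 members by header totals and for 3 under TMM. Of the 55, 8 reached 10 reads in a single library, which the read minimum then fixed as a high one, and for 4 of these it was the female later-stage library. Without those 4, later-stage females were highest for 25 of 51. How many of all unigenes were highest or lowest in these libraries was not counted, so these counts are not read as particular to the members. By header totals, 23029 of 35017 measured unigenes were lower in male adults than in male second-instar larvae. Between later- and middle-stage females, 15719 of 27850 were higher in the later stage.

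Cytoplasmic dynein was measured best. Pooled over their summed length, its 17 unigenes stood at 48.7 RPKM in male first-instar larvae, 48.9 in male second-instar larvae and 24.6 in male adults. In females the pooled level was 31.3 RPKM in first-instar larvae, 41.0 in second-instar larvae, and 34.8, 40.4 and 71.7 in early-, middle- and later-stage adults. The later-stage females were thus the highest of the 8 libraries and the adult males the lowest. Under TMM the lowest library changed: in CPM the sum was then 319 in male adults, against 276 in female first-instar larvae and 310 in female early-stage adults.

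**Figure D1:**
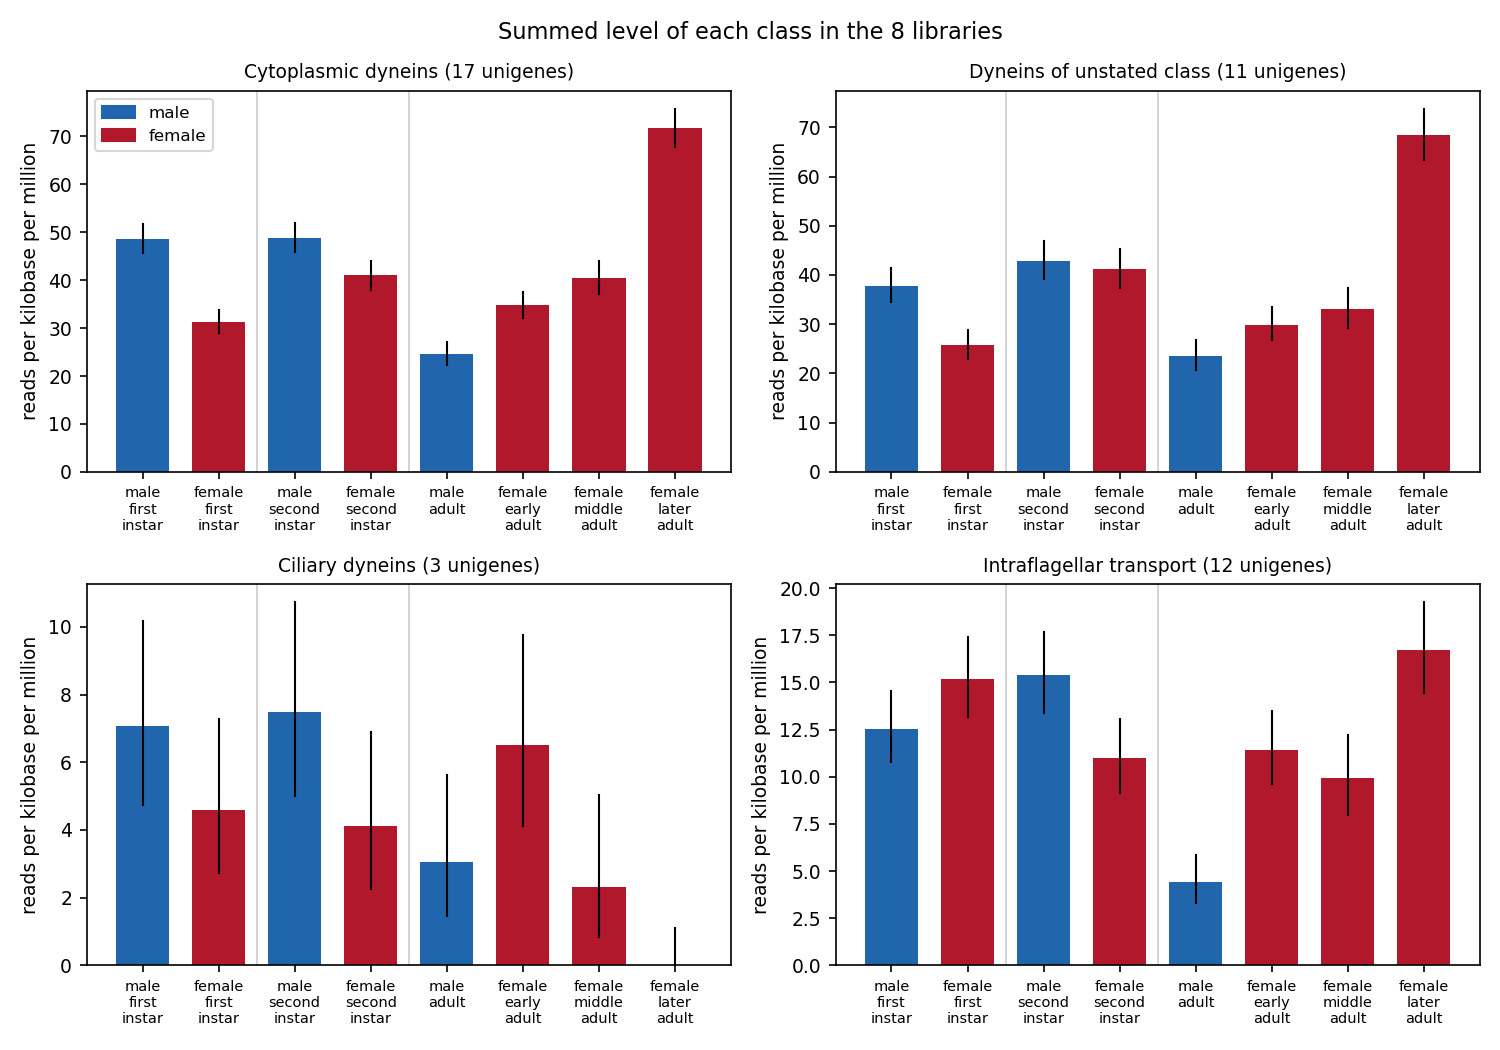
Pooled level (RPKM over summed length, header totals) of 4 classes in the 8 libraries. Male bars are in blue and female bars in red, with lines for the exact 95% counting interval. Cytoplasmic dyneins and dyneins of unstated class reach their highest level in female later-stage adults (71.7 and 68.4), where the 3 ciliary dyneins have no read; under TMM male adults are no longer the lowest library for cytoplasmic dyneins.

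The heavy chain is the subunit that holds the motor domain. Its longest piece (Unigene157496_FOB, 3194 bases) had 264, 263 and 107 reads in male first-instar larvae, second-instar larvae and adults. In females it had 161 and 190 reads in the instars and 165, 129 and 363 in early-, middle- and later-stage adults. Only the later-stage females exceeded 300 reads. The next longest piece (Unigene155945_FOB, 1006 bases) had 58, 86 and 33 reads in the male series and 36, 58, 31, 49 and 134 in the female series, again with its peak in the later-stage females.

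All 13 cytoplasmic heavy chain unigenes together had 1035 reads in female later-stage adults and 407 in middle-stage adults, a ratio of 1.99 (1.77 to 2.24). Of the 13, 12 were higher in the later-stage library, as were 15719 of all 27850 unigenes measured. The 13 had a median ratio of 2.14 and a range of 0.94 to 3.13, and the counting interval excluded 1 for 10. The exception was a piece matching the ant Harpegnathos saltator (Unigene151683_FOB), at 30 reads in later-stage and 25 in middle-stage females. Its highest level was in the middle-stage females, and its lowest was in male first-instar larvae, at 13 reads. This piece was singled out after its values were seen.

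The intermediate chain, which links the motor to dynactin and cargo, had another pattern. Its 3 unigenes, all matching 1 record of the ant Camponotus floridanus, summed to 146, 94 and 13 reads in male first-instar larvae, second-instar larvae and adults. In the female series they summed to 86 and 86 reads in the instars and to 103, 54 and 94 reads in the 3 adult stages. Adult males were far below every other library. The adult male level was 7.34-fold lower than that of early-stage females (4.11 to 14.3), 5.24-fold lower than middle-stage (2.82 to 10.5) and 7.14-fold lower than later-stage females (3.98 to 13.9). It was 6.10-fold lower than in male second-instar larvae (3.40 to 11.9). With TMM the same 4 ratios were 5.04, 3.66, 5.0 and 3.99. The deposited gene ontology terms do not all name a dynein. Unigene55888_FOB (172 bases) carries lysine N-acetyltransferase activity and Unigene105705_FOB (246 bases) acyltransferase activity. Only Unigene121779_FOB carries microtubule terms, so the class of the other pieces rests on match text alone.

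Each of the 3 pieces was lowest in adult males. Unigene55888_FOB had 9 reads there, against 55, 34 and 63 in the female adult libraries. Unigene121779_FOB had 3 reads in adult males, against 36, 16 and 23. Unigene105705_FOB had 1 read, against 12, 4 and 8, and was named after its values were seen. Between later- and middle-stage females the intermediate chain differed by 1.36-fold (0.97 to 1.94). That interval includes no difference and also overlaps the interval of the heavy chain (1.77 to 2.24).

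The Tctex-type light chain, a small cargo-binding subunit, was the steadiest of the 3 subunits (Unigene151115_FOB). It had 126, 118 and 75 reads in the male series and 89, 77, 73, 80 and 97 in the female series. Its highest CPM was 1.49 times its lowest. Female later-stage adults were at 0.95 times the level of middle-stage adults (0.70 to 1.29), an interval below that of the heavy chain (1.77 to 2.24). Male adults were at 1.11, 0.74 and 0.78 times the early-, middle- and later-stage females by header totals and at 1.61, 1.06 and 1.12 times under TMM, so the direction against the middle- and later-stage females depended on the scaling.

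**Figure D2:**
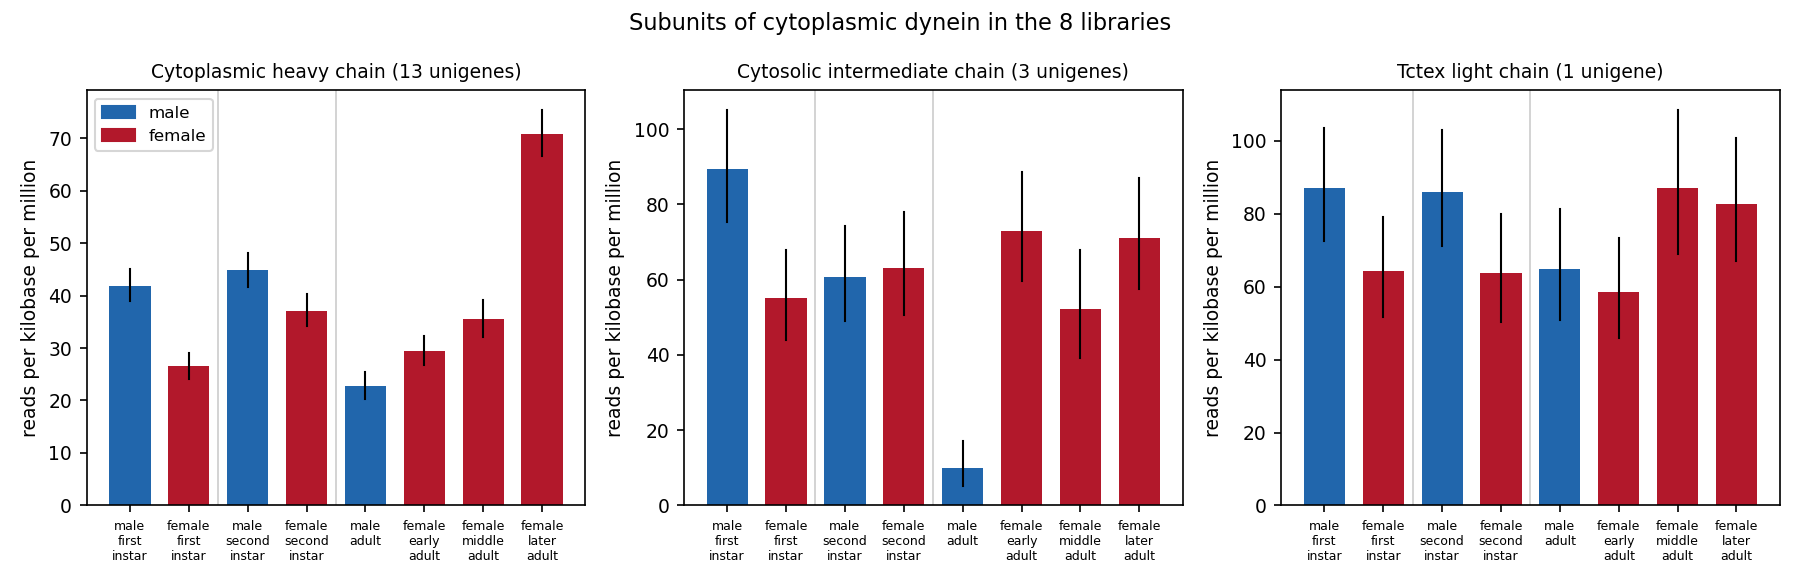
Pooled level (RPKM over summed length, header totals) of the heavy, intermediate and light chain unigenes of cytoplasmic dynein, classed by match text, in the 8 libraries. Male bars are in blue and female bars in red, with lines for the exact 95% counting interval. The heavy chain peaks in female later-stage adults at 70.8, the intermediate chain drops to 9.95 in male adults, a library that stays below each female adult library under TMM, and the light chain lies between 58.4 and 87.1.

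Dyneins of unstated class had the same highest library as the cytoplasmic heavy chain. Of the 11, 10 were heavy chain pieces and 10 had their highest level in female later-stage adults. One of the heavy chain pieces matched dynein heavy chain 64C, which is the cytoplasmic heavy chain of Drosophila (Unigene90215_FOB, 22 reads in later-stage females and 6 in middle-stage females, named after its values were seen). The longest piece (Unigene157058_FOB) had 135, 153 and 66 reads in the male series and 67, 131, 94, 84 and 166 in the female series. A Tribolium-matched piece (Unigene156773_FOB) had 80, 95 and 39 reads in males and 52, 85, 53, 50 and 147 in females. Unigene151956_FOB and Unigene115336_FOB, which match the same Tribolium record, had 143 and 74 reads in later-stage females, against 54 and 15 in middle-stage females.

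The 10 heavy chain pieces of unstated class summed to 666 reads in later-stage and 252 in middle-stage females, a ratio of 2.07 (1.79 to 2.40), and all 10 were higher in the later stage. One of them (Unigene41978_FOB) passed the read minimum only through the later-stage library, and the other 9 had a ratio of 2.02 (1.74 to 2.35). Taken with the cytoplasmic pieces, 22 of 23 heavy chain unigenes were higher in later- than in middle-stage females. Of all measured unigenes 15719 of 27850 were, and of those with a protein match 9534 of 15859. The 23 heavy chain unigenes matched 10 records and are not independent. The single light chain of unstated class (Unigene142932_FOB) had 10 reads in later-stage females, the library through which it passed the read minimum, and 2 to 8 in every other library.

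Dynactin is the partner complex that couples dynein to cargo, and its subunit 1 is the Glued protein of Drosophila. Its 3 unigenes summed to 419, 445 and 175 reads in the male series and to 348, 310, 335, 262 and 423 in the female series. The longest, Unigene156703_FOB, had 273, 280 and 106 reads in males and 244, 196, 217, 174 and 287 in females. Later-stage females exceeded middle-stage females 1.26-fold (1.08 to 1.48), below the interval of the heavy chain. A shorter piece (Unigene139847_FOB) had 21 and 24 reads in these libraries and so lay the other way.

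Between later- and middle-stage females, 39 members had at least 20 reads in either library. Of these, 15 were at least 2-fold higher and 2 at least 2-fold lower, on levels with 1 CPM added. Among all 27850 unigenes so measured, 13% were 2-fold higher and 11.8% 2-fold lower. The median log2 ratio was 0.67 over the 39 members and 0.11 over all unigenes. Past 4-fold stood 1 member, a heavy chain piece of unstated class (Unigene41978_FOB, 21 against 2 reads, 8.23-fold, 2.01 to 72.4), while 8.36% of all unigenes were 4-fold apart. Without this piece, which only later-stage females brought past the minimum, 14 of 38 members were 2-fold higher, the median was 0.66 and 0 were 4-fold apart. The 2 lower members were sperm-associated antigen 7 and the mst101 match described below.

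Markers of ovary and germline, as a sum, were also highest in later-stage females. The 36 unigenes of that list summed to 2496 CPM in later-stage females, against 861 in middle-stage females, and to 164 to 709 CPM in the other 6 libraries. Of the 36, 26 were highest in later-stage females. In both later- and middle-stage females 0 unigenes were at 0 reads, against 6 to 12 in larvae and early-stage females and 14 in adult males. This and the other lists of match words took unigenes with at least 10 reads in at least 1 library. A unigene that passed through later-stage females alone was thus fixed as highest and above 0 there. How many did so was not counted, nor was the share of all unigenes highest there. The vitellogenin receptor, which takes up yolk protein into oocytes, had 2435 reads over 12 unigenes in later-stage females and 52 in middle-stage females. It alone held 1306 of the 2496 CPM in later-stage females and 35.6 of the 861 CPM in middle-stage females. The part of these markers in the heavy chain result was not tested. Bicaudal D, which links dynein to messenger RNA in Drosophila oocytes, was measured too: its 5 unigenes had 193 reads in later-stage and 168 in middle-stage females, a ratio of 0.90 (0.73 to 1.11).

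**Figure D3:**
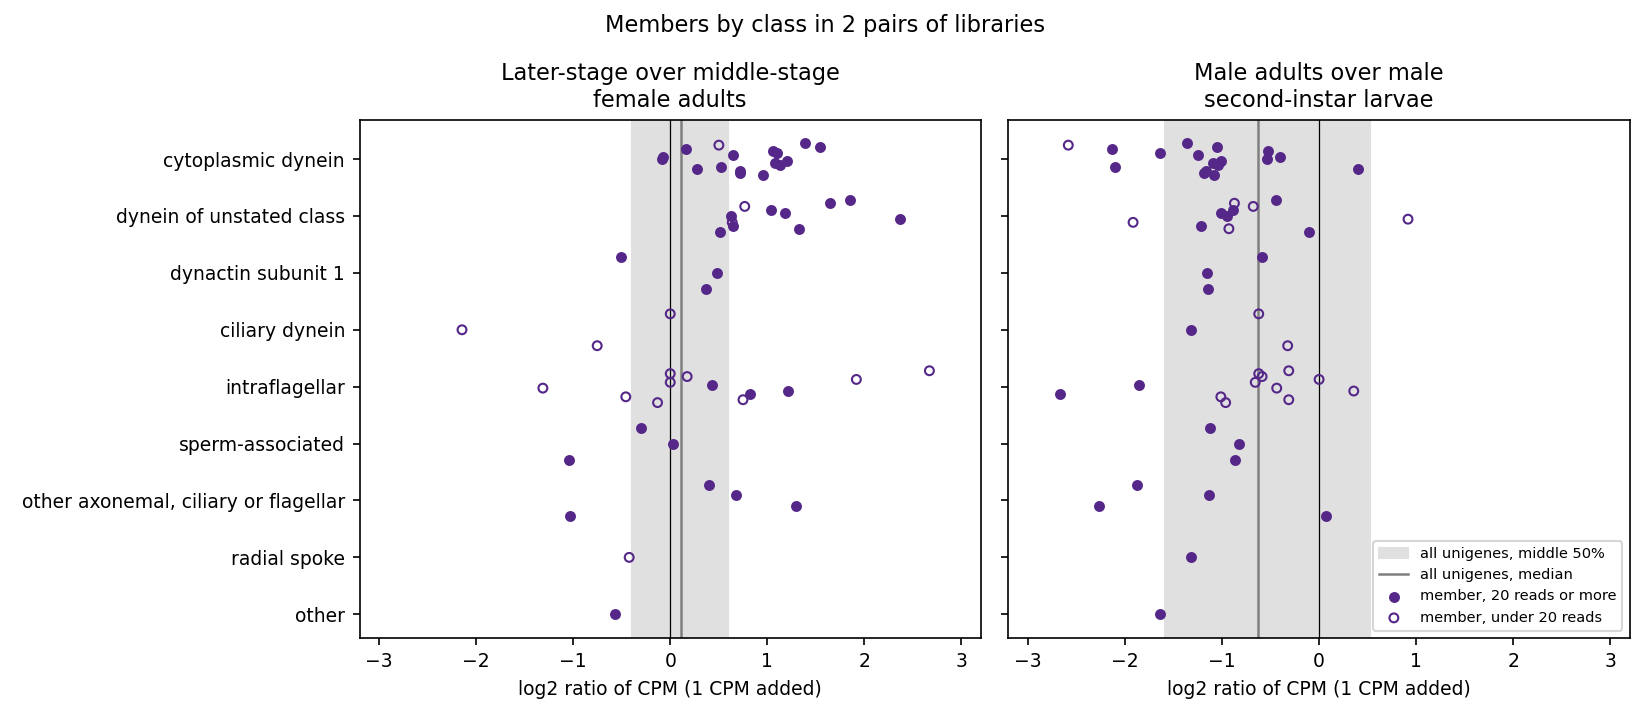
Log2 ratio of levels (1 CPM added, header totals) for every member by class, for female later-stage over middle-stage adults (left) and male adults over male second-instar larvae (right); filled points have 20 reads or more in either library, open points fewer, and the grey band and line give the middle 50% and the median of all unigenes. On the left the cytoplasmic and unstated dyneins lie mostly to the right of the all-unigene median of 0.11; on the right most members lie left of the all-unigene median of -0.63, which TMM scaling shifts by 0.61.

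Ciliary dyneins were near the limit of detection. Of 16 unigenes matching axonemal or ciliary dyneins, 3 reached 10 reads in any library. Pooled over their summed length, these 3 stood at 7.08, 7.47 and 3.05 RPKM in the male series, and at 4.60, 4.10, 6.51, 2.31 and 0 RPKM in the female series. In male first-instar larvae the 3 ciliary dyneins stood at 7.08 RPKM, against 48.7 RPKM for cytoplasmic dynein, and they were the lower class in every library.

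A ciliary dynein heavy chain (Unigene35212_FOB, 795 bases) had 7, 21 and 6 reads in male first-instar larvae, second-instar larvae and adults. It had 3 and 2 reads in the female instars and 15, 5 and 0 in female early-, middle- and later-stage adults. It passed the read minimum only through male second-instar larvae and early-stage females, so that minimum fixed these as its high libraries. The beta chain (Unigene36686_FOB) was spread differently, with 11, 5 and 3 reads in the male series and 12, 11, 5, 1 and 0 in the female series, so that both female instars were at least as high as any male library. It passed the read minimum only through male first-instar larvae and both female instars, which that minimum fixed as high. The match to axonemal heavy chain 5, a chain of the outer arm (Unigene132849_FOB), had 11 reads in male first-instar larvae, the library through which it passed the read minimum, and 0 to 3 in every other library.

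Each of the 3 had 0 reads in later-stage females, which allows up to 1.61 CPM. At the floor of 3 reads their sum was at least 2.55-fold lower there than in middle-stage females, which had 6 reads, and the exact counting interval of that ratio begins at 1.5. Middle-stage females were 2.82-fold below early-stage females (1.12 to 8.46). None of the 3 passed the read minimum through middle- or later-stage females, so the choice of members favoured low values there. All 16 matches together stood at 16.1 CPM in early-stage and 10.3 CPM in middle-stage females. Over all 16 ciliary dynein matches, however, later-stage females had 26 reads, within the 15 to 49 of the other libraries, and the 13 matches under the read minimum held all 26. The absence of reads was thus a feature of the 3 members and not of every ciliary dynein match.

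Markers of sensory cells, as a sum, were lower in middle- and later-stage females than in early-stage females. The 16 sensory unigenes, which match opsins, odorant-binding proteins, transient receptor potential channels and an odorant receptor, summed to 371 CPM in early-stage, 51.3 in middle-stage and 37.0 in later-stage females, with 0, 8 and 9 of the 16 at 0 reads. The 30 neuronal unigenes summed to 496, 533 and 359 CPM, with 0, 7 and 12 at 0 reads. In adult males, where the 3 ciliary dyneins summed to 5.43 CPM, or 7.68 under TMM, the sensory list summed to 270 CPM and the neuronal list to 734. In larvae the order of the libraries differed between the lists and the ciliary dyneins. Male first- and second-instar larvae had 206 and 84.3 CPM of the sensory list, against 12.6 and 13.3 CPM of the 3 ciliary dyneins. Female first- and second-instar larvae had 354 and 175 CPM, against 8.18 and 7.30 CPM. The neuronal list summed to 676 and 364 CPM in these males and 674 and 545 CPM in these females. The part of both lists in the ciliary dynein values was not tested.

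Intraflagellar transport matches differed among themselves in which library was highest. Train complex B carries cargo towards the ciliary tip and complex A returns it. For complex A, 4 unigenes matched IFT140 and summed to 55, 10 and 9 reads in male first-instar larvae, second-instar larvae and adults. In females they summed to 32 and 25 in the instars and to 32, 20 and 76 in the adult stages. Later-stage females and male first-instar larvae were the high libraries, and male second-instar larvae and adults the low ones.

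The IFT140 level in male second-instar larvae was 5.21-fold lower than in male first-instar larvae (2.63 to 11.5) and 2.84-fold lower than in female second-instar larvae (1.32 to 6.64). Later-stage females exceeded middle-stage females 2.98-fold (1.80 to 5.14). Of the 4 unigenes, 2 passed the read minimum only through later-stage females (Unigene134843_FOB and Unigene125078_FOB, 10 reads each there). The other 2 gave 56 reads in later-stage and 19 in middle-stage females, a ratio of 2.31 (1.35 to 4.11). The main piece, Unigene156458_FOB, had 30, 6 and 7 reads in males and 17, 15, 24, 14 and 44 in females. The other complex A match, IFT122 (Unigene57130_FOB), had 8, 7 and 2 reads in the male series and 12, 6, 6, 7 and 6 in the female series, without a later-stage peak. It passed the read minimum only through female first-instar larvae, so its high library was fixed by that minimum. It and the 2 pieces left out were named after their values were seen.

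Summed by subunit, the complex B members were highest in male or female first-instar larvae, at low counts. For IFT46 and IFT80 the read minimum fixed this, and matches under the minimum are not in the sums. The 2 unigenes matching IFT74 summed to 30, 22 and 12 reads in males and to 27, 16, 23, 12 and 9 in females. The longer, Unigene153758_FOB, had 17 reads in female first-instar larvae and 3 in later-stage females. The IFT46 match (Unigene126026_FOB) had 11, 3 and 1 reads in males and 12, 1, 6, 0 and 0 in females. It passed the read minimum only through the first-instar larvae of both sexes. The IFT80 match (Unigene13684_FOB) had 11, 5 and 2 reads in males and 3, 1, 1, 0 and 0 in females. It passed the read minimum only through male first-instar larvae, so its high library was fixed by that minimum. The IFT46 and IFT80 matches were named after their values were seen, and a count of 0 allows 1.61 CPM in later-stage females.

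The best covered intraflagellar transport match names no subunit. Its 2 unigenes, pieces of 1 record of the body louse Pediculus humanus corporis, summed to 50, 150 and 21 reads in the male series and to 102, 69, 62, 43 and 92 in the female series. Male second-instar larvae were highest, and male first-instar larvae and adults were both below every female library in CPM. The male second-instar level was 3.17-fold that of male first-instar larvae (2.29 to 4.45) and 1.91-fold that of female second-instar larvae (1.43 to 2.58). Male first-instar larvae were 2.14-fold below female first-instar larvae (1.51 to 3.06). The longer piece, Unigene156752_FOB, had 13 reads in male adults, against 110 in male second-instar larvae. The shorter, Unigene143602_FOB, had 8 and 40. In male second-instar larvae IFT140 was thus low where this match was high.

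**Figure D4:**
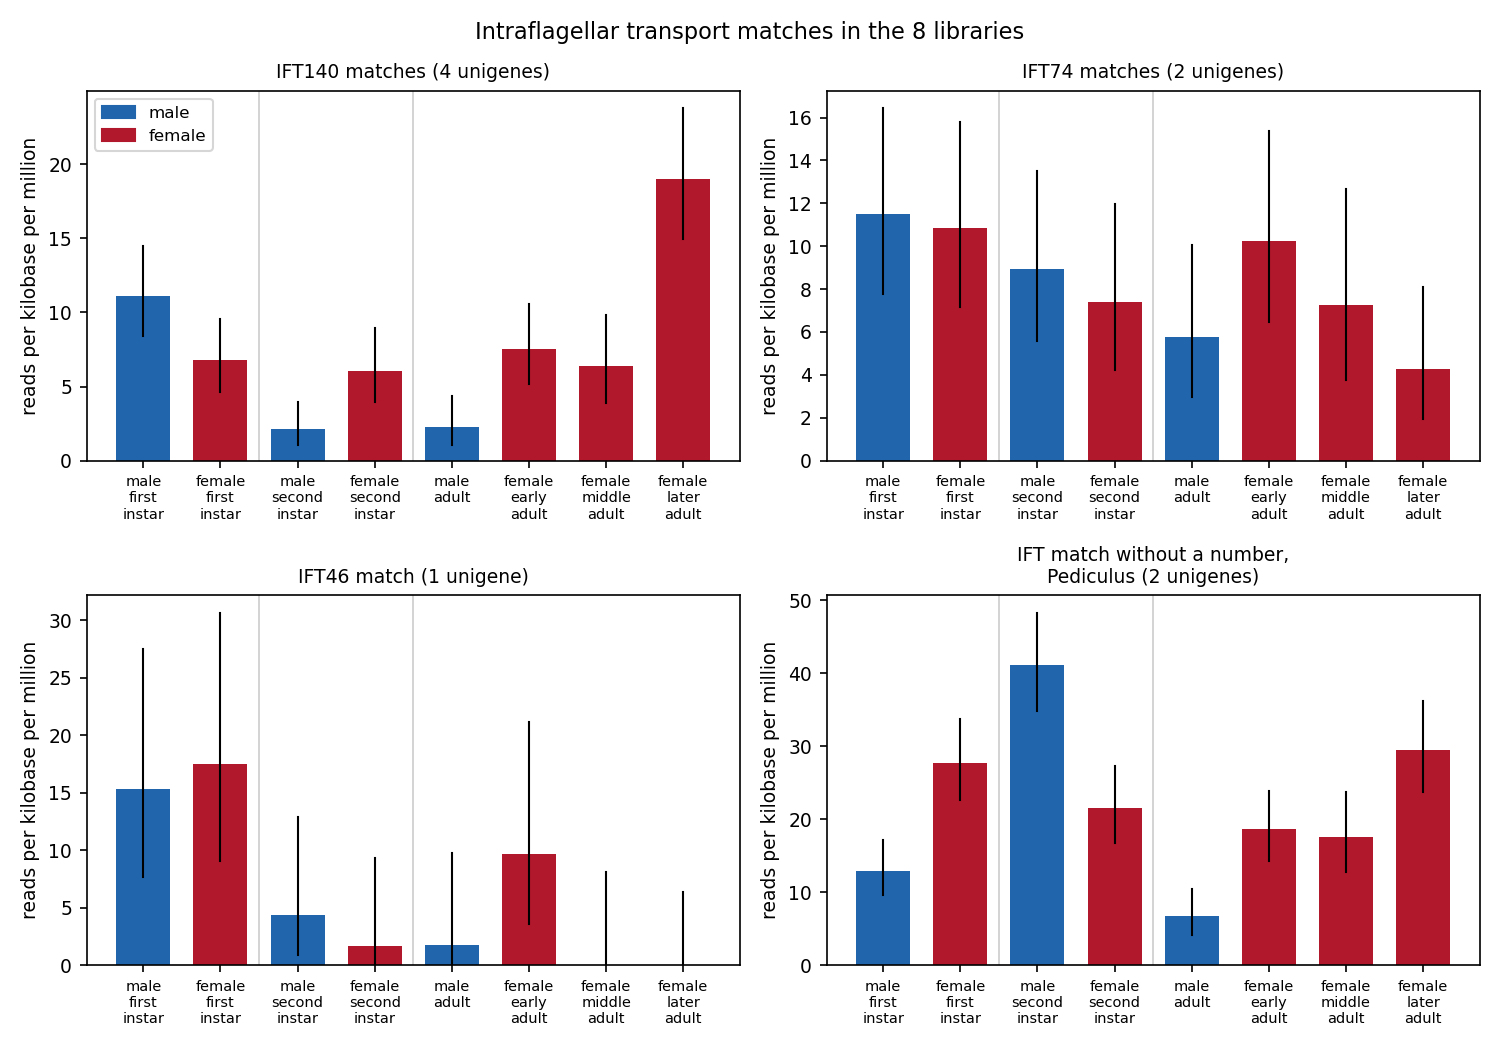
Pooled level (RPKM over summed length, header totals) of 4 groups of intraflagellar transport matches in the 8 libraries. Male bars are in blue and female bars in red, with lines for the exact 95% counting interval. IFT140 is highest in female later-stage adults at 19.0 and the match without a number in male second-instar larvae at 41.1, while the IFT46 match has no read in female middle- and later-stage adults.

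Among the other axonemal and flagellar matches, 3 unigenes shared a putative paraflagellar rod protein record of the beetle Tribolium castaneum. The paraflagellar rod is a structure of trypanosome flagella, and no role of the insect protein is assumed here. They summed to 163, 322 and 76 reads in the male series and to 225, 179, 218, 123 and 290 in the female series. Male second-instar larvae and later-stage females were high, as for the unnumbered transport match. The male second-instar level was 2.09-fold that of male first-instar larvae (1.72 to 2.53) and 1.58-fold that of female second-instar larvae (1.31 to 1.91). Male adults were 3.57-fold below male second-instar larvae (2.78 to 4.65), or 2.34-fold under TMM. The pieces Unigene156626_FOB, Unigene154510_FOB and Unigene145534_FOB had 168, 96 and 58 reads in male second-instar larvae, against 64, 58 and 41 in male first-instar larvae.

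The match to mst101, a sperm-tail protein of Drosophila hydei (Unigene87160_FOB), was read at a similar count in most libraries. It had 23, 28 and 25 reads in the male series and 31, 24, 27, 24 and 14 in the female series. Male adults were at 13.6 CPM, against 13.6, 16.4 and 7.51 CPM in the 3 female adult stages. Under TMM male adults were highest of the 8 libraries, at 19.2 CPM, against 13.2, 16.3 and 7.44 CPM in those stages. The radial spoke protein match (Unigene77072_FOB), named for the spokes that join the outer and central microtubules of the axoneme, had 25, 24 and 7 reads in males and 19, 11, 14, 11 and 10 in females. Its best match was to the sea squirt Ciona intestinalis.

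Sperm-associated antigens were read in both sexes and every stage. The 2 unigenes of an unnumbered antigen (Unigene155370_FOB and Unigene137191_FOB) summed to 384, 271 and 118 reads in the male series and to 307, 211, 180, 177 and 206 in the female series. Male first-instar larvae were highest, and male adults were lowest by header totals. Under TMM the adult male level was 1.03 times that of early-stage females and 0.76 and 0.83 times those of the middle- and later-stage females. Sperm-associated antigen 7 (Unigene93968_FOB) had 97, 45 and 20 reads in the male series and 53, 51, 44, 50 and 30 in the female series. Male first-instar larvae exceeded female first-instar larvae 1.75-fold (1.24 to 2.49). The dynein-related ATPase (Unigene114220_FOB), matched to Plasmodium falciparum, had 136, 108 and 28 reads in males and 96, 124, 116, 94 and 80 in females.

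The sexes were next compared at each age. In first-instar larvae, 0 of 36 measured members were 4-fold apart, against 3.56% of all unigenes. At 2-fold, 4 were higher and 1 lower in males, against 8.27% and 11.4% of all unigenes. Among the 18304 measured unigenes with a protein match, as every member has, 1619 were 2-fold higher and 565 lower. Cytoplasmic dynein was 1.55-fold higher in male first-instar larvae (1.41 to 1.72), with 1028 reads, against 632 in females. The cytoplasmic heavy chain had 756 reads in male and 457 in female first-instar larvae, and 12 of its 13 unigenes were higher in males. So were 20516 of 36284 measured unigenes, and 12474 of the 18304 with a protein match. Under TMM the heavy chain ratio of 1.58 became 1.49.

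In second-instar larvae 1 of 37 members was 4-fold apart, against 6.3% of all unigenes. It was the ciliary dynein heavy chain Unigene35212_FOB, with 21 reads in males and 2 in females (9.23-fold, 2.26 to 81.2). This piece passed the read minimum only through these males and early-stage females, so its direction here was fixed by that minimum. At 2-fold, 3 members were higher and 0 lower in males, against 9.5% and 10.4% of all unigenes. The cytoplasmic heavy chain ratio was 1.21 (1.08 to 1.35).

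For adults a member had to differ from each of the 3 female libraries. Of 26 members measured, 0 were 4-fold higher and 1 was 4-fold lower in males, against 17.1% of all unigenes in either direction. The lower one was Unigene55888_FOB, an intermediate chain piece by match text whose gene ontology term is lysine N-acetyltransferase activity. At 2-fold, 0 were higher and 4 lower, against 19% and 22.4%. Under TMM 0 members were 4-fold lower and 1 was 2-fold lower, against 4.72% and 14% of all unigenes. Against a single female library, 2 of 30 members were 4-fold lower than in early-stage, 2 of 27 than in middle-stage and 8 of 39 than in later-stage females, where 16.8%, 18.9% and 20.7% of all unigenes were. The cytoplasmic heavy chain was 3.12-fold lower in adult males than in later-stage females (2.75 to 3.54), or 2.18-fold under TMM. Against early-stage females its direction depended on the scaling, at 0.77 by header totals and 1.13 under TMM.

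Along male development, 0 of 38 members were 4-fold apart between second- and first-instar larvae, against 8.21% of all unigenes. Between male adults and second-instar larvae, 4 of 37 members were 4-fold lower and 0 higher, against 27.5% of all unigenes in either direction. The 4 were the intermediate chain pieces Unigene55888_FOB (9 against 53 reads) and Unigene121779_FOB (3 against 23), the transport match Unigene156752_FOB (13 against 110) and the paraflagellar rod match Unigene156626_FOB (28 against 168). At 2-fold 25 members were lower and 0 higher, against 39.9% and 18.8% of all unigenes. Under TMM 8 were 2-fold lower and 0 higher, against 26% and 26.6% of all unigenes, and 1 was 4-fold lower, against 11.1%. In the cytoplasmic heavy chain the adult male level was 1.97-fold lower (1.73 to 2.25), or 1.29-fold under TMM.

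Along female development 0 members were 4-fold apart between second- and first-instar larvae (33 measured, against 2.59% of all unigenes), between early-stage adults and second-instar larvae (33 measured, 1.34%), and between middle- and early-stage adults (31 measured, 10.4%). The cytoplasmic heavy chain was 1.40-fold higher in second- than in first-instar females (1.24 to 1.59), with all 13 pieces in that direction. So were 17215 of 34172 measured unigenes, and 10348 of the 17332 with a protein match. The heavy chain was 1.26-fold lower, at a ratio of 0.79, in early-stage adults than in second-instar larvae (0.70 to 0.90).

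Tests across libraries found no member past an adjusted p of 0.05. The edgeR quasi-likelihood test of sex with stage as covariate tested 45 members among 51155 unigenes, and the lowest adjusted p of a member was 0.886. It called 0% of all unigenes, 0 members had an unadjusted p under 0.05, against 4.67% of all unigenes, and DESeq2 called 0 members, while it called 43 of all unigenes higher and 47 lower. The adult sex test, male adults against the 3 female adult libraries, tested 53 members. It called 4.28% of all unigenes higher and 2.18% lower in males, and 0 members. An unadjusted p under 0.05 was found for 4 of the 53, against 26.6% of all unigenes. Of these 4, 3 were the intermediate chain matches, of which Unigene55888_FOB and Unigene105705_FOB carry acetyl- or acyltransferase terms. The lowest adjusted p by edgeR were 0.0656 for Unigene121779_FOB (log2 ratio -2.64, SE 0.70) and 0.0687 for Unigene55888_FOB (log2 ratio -2.11, SE 0.57). Each was lower in adult males than in 3 of 3 female adult libraries. The test of whether the sex difference differed between adults and larvae called 0.453% of all unigenes and 0 of 53 members, of which 4 had an unadjusted p under 0.05, against 20% of all unigenes, and the lowest adjusted p by edgeR was 0.130. DESeq2 called 0 members in the last 2 tests, with 3 and 1 at an unadjusted p under 0.05, and gave no adjusted p for 17 and 19 of the 53. Over all unigenes it called 2732 higher and 2035 lower in the adult test and 1394 higher and 892 lower in the other. All of these rest on 1 male adult library, assumed to vary like the rest, with 4 residual degrees of freedom.

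Other genes of microtubule and cilium biology were counted over lists of match words. Tubulins and their folding factors had unigenes past 4-fold in both directions. Of 28 measured unigenes, 6 were 4-fold higher and 5 lower in male adults than in later-stage females, shares near the 16.9% and 20.7% of all unigenes. Under TMM 6 were higher and 4 lower, against 20.9% and 14.6%. Tubulin-specific chaperone E (Unigene143419_FOB) had 530 reads in male adults and 50 to 96 in every other library. Tubulin-specific chaperone B (Unigene155761_FOB) had 14 in male adults and 132 to 191 elsewhere. Both are folding factors for the tubulin dimer. Kinesins, the motors that mostly move towards plus ends, had 2 of 34 unigenes 4-fold higher and 8 lower in the same pair, or 5 and 7 under TMM. Kinesin 21A (Unigene152339_FOB) had 262 reads in male adults and 84 in later-stage females.

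Between later- and middle-stage females, 3 of 26 measured tubulins were 2-fold apart, 1 of them higher, and 4 of 30 kinesins, 3 of them higher. Of all unigenes, 13% were 2-fold higher and 11.8% 2-fold lower. The median log2 ratio was 0.03 over the tubulins and 0.22 over the kinesins, against 0.11 over all unigenes and 0.67 over the dynein and cilium members. In the dynactin and dynein adaptor list, 2 of 18 were 4-fold higher in later-stage females, against 8.36% of all unigenes in either direction. Both matched nudel, an eggshell-patterning protease of Drosophila that is no dynein adaptor and that the word search took in by its name. Unigene136076_FOB had 121 reads in later-stage and 10 in middle-stage females, and Unigene82549_FOB had 25 and 0. They were named after their values were seen, as were bicaudal D, Bbs2 and the vitellogenin receptor as groups.

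Bardet-Biedl proteins form a coat that sorts membrane cargo in cilia. The 3 unigenes matching Bbs2 had 82, 36 and 5 reads in the male series and 36, 20, 24, 12 and 87 in the female series. Later-stage females exceeded middle-stage females 5.68-fold (3.09 to 11.4), and the female later-stage and male first-instar libraries were the 2 highest, as for IFT140. The main piece, Unigene142511_FOB, had 52 reads in later-stage and 7 in middle-stage females. The whole Bardet-Biedl and transition zone list held 8 unigenes, of which 3 were highest in later-stage females, all matching Bbs2. That list summed to 74.0 CPM in later-stage and 34.2 CPM in middle-stage females, of which Bbs2 held 46.7 and 8.22 CPM. In the list of centriole and basal body proteins, 0 of 9 measured unigenes were 2-fold apart between these libraries. In the list of other cilium proteins 3 of 22 were, 2 of them higher. Among all unigenes 13% were 2-fold higher and 11.8% lower.

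Markers of testis and sperm were read in both sexes. The 19 unigenes of that list summed to 788 CPM in male adults and to 413 to 542 CPM in the other 7 libraries. Without a testis serine protease match the remaining 18 summed to 351 CPM in male adults, the lowest library by header totals, but to 496 CPM under TMM, where it was not the lowest. That protease (Unigene114453_FOB) had 805 reads in male adults and 0 or 1 in every other library, and was named after its values were seen. Muscle markers were highest in male adults, at 7276 CPM over 77 unigenes, against 1197 to 3876 CPM elsewhere, and 58 of the 77 were highest there. How many of the 77 passed the read minimum through male adults alone was not counted. The part of these lists in the low adult male values of dyneins and transport proteins was not tested.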

How the data were processed

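The 8 libraries, 1 per group, were deposited as 1 table each. Per the file headers, the authors give for every unigene the number of uniquely assigned reads as a raw count, with the library total, the RPKM, the unigene length in bases, the percent of the unigene covered and the best protein match. Unigenes not listed in a file were taken as 0 reads. The deposited RPKM values were recomputed from count, length and header total. No source used here names the assembler, aligner or strand setting.

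The members and lists were chosen with earlier results of these data known. Members were classed by match text. After the texts had been read, "cytosolic" was counted as cytoplasmic, and dynactin subunit 1 and the dynein-related ATPase were set apart from the dyneins of unstated class. Up to 4 members with most reads in each class and up to 6 per direction past 4-fold in each pair were named.

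Pairs of libraries were compared by log2 ratio with 1 CPM added, among those with 20 or more reads in 1 or both libraries, and called at 4-fold or, as an alternative, at 2-fold. Male adults had to pass against each of the 3 female adult libraries. Ratios of summed reads carry exact conditional binomial 95% intervals, and levels in the plots exact Poisson intervals. Both cover counting error only, and a count of 0 was set to 3 reads, which is 1.30 CPM in the deepest and 2.05 CPM in the shallowest library.

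Tests across libraries used the edgeR 4.0.16 quasi-likelihood test on all unigenes that passed its filter on low counts. TMM factors and Benjamini-Hochberg adjustment were used, and calls were made at 0.05. Only the sex test across stages was also run on simulated counts. These were set to vary less than the real libraries, so that run does not show how any test behaves at the spread of these data. DESeq2 1.42.0 was the alternative. R 4.3.3, Python 3.11.15, pandas 2.3.3, numpy 2.4.6, scipy 1.17.1 and matplotlib 3.10.9 were used. Where nothing says that libraries came from separate collections, the p-values measure the spread between these libraries. Sequences were not used here.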

Additional observations from a re-analysis of the deposited data

How the results depend on the processing

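The sex test across stages and the sex by life stage test called 0 members under every alternative run, as did the adult sex test except with header totals and no factors, where it called 2 lower in males. Leaving out each library in turn gave 0 to 0 calls in each test. Without the male adult library the adult and the sex by life stage tests were not run, since no adult male remained. No paired analysis was possible because each group holds a single library, whose number 1 is only a name.

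Counts of members 4-fold apart moved as follows. At 2-fold they were 5 for male over female first-instar larvae, 3 for second-instar larvae, 4 for male adults over each female adult stage, 5 for male second- over first-instar larvae, 25 for male adults over male second-instar larvae, 2 for female second- over first-instar larvae, 1 for early-stage adults over second-instar larvae, 1 for middle- over early-stage adults and 17 for later- over middle-stage adults. With 5 CPM added, and likewise with at least 100 reads, they were 0 for second-instar larvae, 0 for male adults over each female adult stage, 2 for male adults over male second-instar larvae and 0 for later- over middle-stage females. TMM gave 0 for male adults over each female adult stage and 1 for male adults over male second-instar larvae. Against early-, middle- or later-stage females alone, an alternative chosen after seeing the data, male adults had 2 of 30, 2 of 27 and 8 of 39 members 4-fold lower. Leaving out members that reached the read minimum in later-stage females only, also chosen after seeing the data, gave 0 for later- over middle-stage females.

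The summed CPM of cytoplasmic dyneins under TMM was 405 in male first-instar larvae, 415 in male second-instar larvae, 319 in male adults and 347 in female second-instar larvae. Per kilobase it was 48.7, 48.9 and 24.6 in the male series and 31.3, 41.0, 34.8, 40.4 and 71.7 in the female series. Without the unigenes called cytosolic, chosen after seeing the data, it was 342, 363 and 199 CPM in the male series and 216, 293, 246, 307 and 548 CPM in the female series. Ciliary dyneins per kilobase stood at 7.08 in male first-instar larvae, 7.47 in male second-instar larvae, 4.60 in female first-instar larvae and 6.51 in female early-stage adults. The CPM, per-kilobase and cytosolic values differ by construction, being in other units or over fewer unigenes.

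Depth limits the ciliary dyneins and several transport proteins, whose counts per unigene are mostly below 20 reads and give wide intervals.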
